A study of Drosophila melanogaster with 3 samples.

Results

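The ecdysone cascade genes examined here are EcR, usp, br, Eip74EF, Eip75B, Eip78C, Hr3, Hr4, Hr39 and ftz-f1. They were listed by name, from what is known of the pathway, with earlier results of these data also known. They make up 10 of 13968 protein-coding genes on the main chromosome arms of Drosophila melanogaster. For each gene the question was whether the protein CG34224 occupied a start site, which of the alternative promoters it occupied, and how high that peak ranked among all peaks. Binding was mapped by ChIP-seq, in which DNA cross-linked to a protein is precipitated with an antibody and sequenced. The flies were transgenic and carried CG34224 fused to eGFP, a green fluorescent protein, in the strain CG34224-GFP. The strain carries an insertion targeting CG34224, and the labels do not say which promoter drives the fusion. The antibody was directed against GFP, and chromatin was sonicated to 200 to 800 bp. All 3 libraries came from whole embryos of 0 to 24 hours, so tissues and stages are mixed. They form 1 group of biological replicates 1, 2 and 3, with no untagged or untreated group among the lists used here, and the control experiment is not analysed here.

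Ecdysone is the steroid hormone that times moulting, metamorphosis and steps of embryonic development in insects. It binds a heterodimer of the nuclear receptors EcR and Usp, which then switches on a small set of early genes. The early products, most of them transcription factors, act on a wave of early-late nuclear receptors and on late effector genes, and several of them repress the early genes in turn. Most of these loci are long and use several promoters that give different protein isoforms.

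A promoter was a start site, or a run of start sites of 1 gene no more than 300 bp apart, and a promoter peak was one with its summit, the highest point, within 500 bp of a start site. Signal is the authors' value for the strength of a peak, on an unstated scale, and it can be ranked only within a list. The percentile of a peak is the share of its list with an equal or lower signal, so 100 marks the strongest. The 3 thresholded replicate lists held 2667, 2844 and 4146 peaks, and the authors' conservative list, made from all 3 libraries together, held 4395. Read counts are not part of the lists, and the depth of each library is therefore unknown. Replicate 3 had the longest list and also held a promoter peak at the most cascade genes.

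In the conservative list 7 of the 10 genes had a promoter peak, against 29.7% of all protein-coding genes. They were EcR, usp, Eip74EF, Eip75B, Eip78C, Hr3 and ftz-f1, while br, Hr4 and Hr39 had none. The thresholded lists gave 4, 3 and 6 genes for replicates 1, 2 and 3, a mean of 4.33 ± 1.53 genes (SD, n = 3). The share of all protein-coding genes with a promoter peak was 21.1%, 22.3% and 28.6% in the same lists. Only usp, ftz-f1 and Hr3 had a promoter peak in all 3 replicates, against 17.3% of protein-coding genes. No test was made of these counts, because the genes were listed with results of these data known.

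The cascade genes have more promoters than most genes, and the part this plays in their counts was not tested. Among protein-coding genes the share with a conservative promoter peak was 27% with 1 promoter, 37.4% with 2, 49.7% with 3 and 58.5% with 4 or more. Of the 10 cascade genes only Hr39 had 1 promoter, usp and Hr4 had 2, EcR, ftz-f1, Hr3, Eip74EF and Eip78C had 3, and Eip75B and br had 7. Counted by promoter, 10 of the 34 promoters of the cascade genes held a conservative peak (29.4%), against 24.5% of all promoters of protein-coding genes. In genes with 2, 3 and 4 or more promoters, where all cascade genes but Hr39 fall, 20.7%, 20.5% and 18.1% of promoters were bound. All 5 cascade genes with 3 promoters were bound, as were 1 of 2 with 2 promoters and 1 of 2 with 7.

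**Figure D1:**
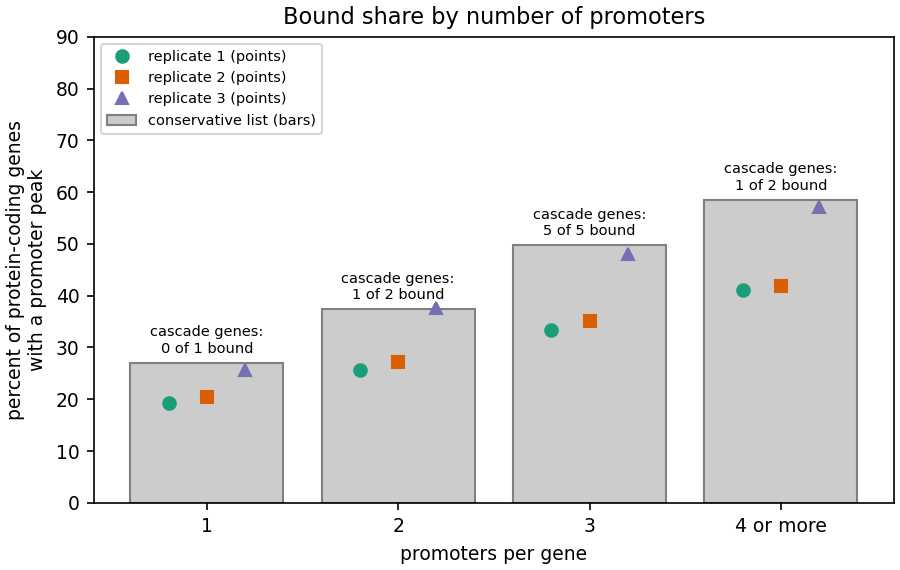
Percent of protein-coding genes with a promoter peak (vertical axis) by the number of promoters of a gene (horizontal axis), in the conservative list (bars) and in the 3 replicate lists (points). The bars climb from 27% for genes with 1 promoter to 58.5% for genes with 4 or more, and the text over each bar gives the number of cascade genes bound.

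The partners of the receptor differed in their peaks. usp (FBgn0003964, X 2038798 to 2042311, minus strand), the Drosophila homologue of the retinoid X receptor and the obligate partner of EcR, had the strongest promoter peak of the 10 genes. It lay at X 2041291 to 2041593 (dm6) with a signal of 561, rank 536 of 4395 and percentile 87.8. The peak ranked 317 in replicate 1, 420 in replicate 2 and 929 in replicate 3, a percentile of 83.7 ± 5.48 (SD, n = 3). Replicate 3 gave the lowest percentile, 77.6, so the peak stood high in all 3 lists.

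The bound promoter of usp was the downstream one, that of transcript usp-RA. The conservative summit was 82 bp upstream of it, and the summits of the replicates were 164, 168 and 190 bp upstream. The start site of CG4313, on the opposite strand, lay 474 bp from the conservative summit, so the peak counts for both genes. The upstream promoter, that of usp-RB, shares its start site with Actn, the gene of alpha-actinin. It had no conservative peak, with the nearest summit 917 bp away, but replicate 2 held a weak peak there with a signal of 41.8 at percentile 9.6. One of the authors' other thresholded series lists, the shortest, also held a peak at usp-RB, with a signal of 110 at rank 3297 of 3730.

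EcR (FBgn0000546, 2R 6087873 to 6169087, minus strand), the ecdysone-binding subunit itself, had the weakest promoter peak of the 7 bound genes in the conservative list when the strongest of each was taken. Its peak at 6156947 to 6157482 had a signal of 144, rank 3550 and percentile 19.2. It sat 86 bp upstream of the middle promoter, that of EcR-RD and EcR-RE. Only replicate 3 held it in its thresholded list, with a signal of 70.5, rank 3671 and percentile 11.5. The ranked lists, which keep peaks below the authors' threshold, held a peak overlapping it in replicates 1 and 2 with scores of 493 and 702, both below 830, the lowest score found in the thresholded lists.

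Which EcR promoter was listed depended on the list. Of the authors' other thresholded series lists, named a, b and c by falling length, a and b held a peak with a signal of 174 at the promoter of EcR-RB and EcR-RC, at position -218 bp, and no peak at EcR-RD. There EcR stood at percentiles 37.3 and 31.3, above Eip74EF at 31.0 and 25.9. Series list c held no EcR promoter peak. In the ranked lists of replicates 1 and 3 the promoter of EcR-RB and EcR-RC had the stronger signal, 49.9 and 111 against 33.6 and 70.5 at EcR-RD. The scores of those peaks were 483 and 620, below 830. In replicate 2 EcR-RD had the stronger signal, 42.0 against 24.5. The promoter of EcR-RA had no peak within 500 bp in the conservative list, and the nearest summit was 568 bp away, the closest miss among the 10 genes. That summit lay at the gene of tRNA:Arg-ACG-1-3.

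Stronger peaks than the promoter peak lay elsewhere in the EcR locus. Within the gene and 5 kb to either side the conservative list held 7 further peaks, with signals from 193 to 436. Of these, 5 had the start of a tRNA gene within 500 bp, in a locus with 16 tRNA genes, 13 of them inside EcR. The strongest lay at 6171353 to 6171888 with a signal of 436 and percentile 80.0, at tRNA:Arg-ACG-1-4 and tRNA:Lys-CTT-1-5. It was listed in all 3 replicates, at percentiles 60.4, 55.0 and 83.9. An intronic peak at 6151241 to 6151776 had no start site within 500 bp. Its signal was 368, and it too was listed in all 3 replicates, at percentiles 34.8, 43.1 and 69.9. No other cascade gene had a tRNA gene within its body or 5 kb of it.

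**Figure D2:**
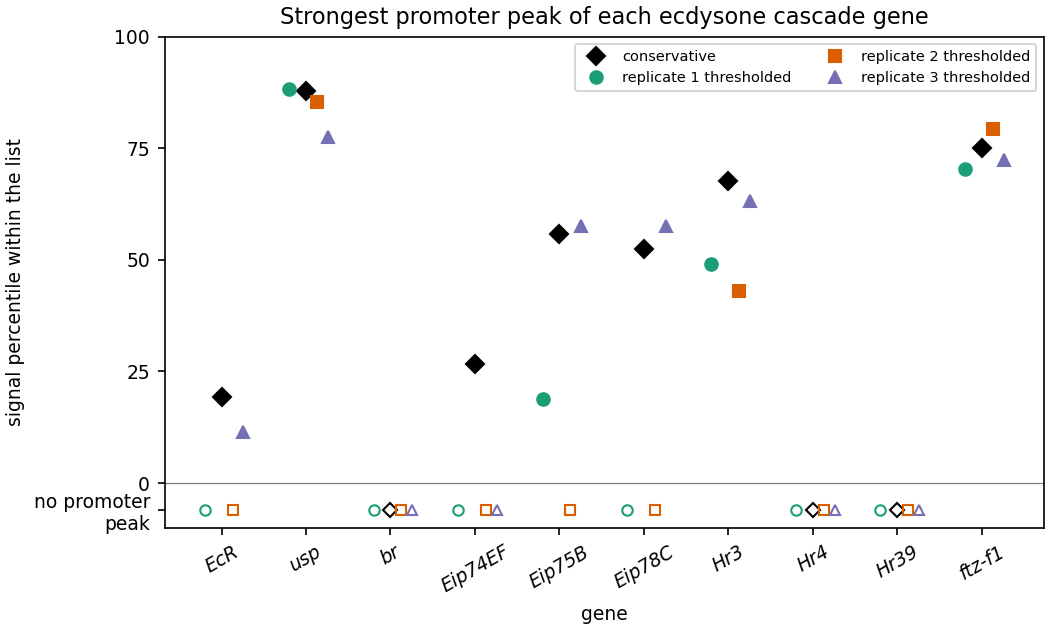
Signal percentile of the strongest promoter peak of each gene (vertical axis, 100 is the strongest peak of a list) in the conservative list (diamonds) and the 3 thresholded replicate lists (circles, squares and triangles). Open symbols at the foot mark lists with no promoter peak; usp, ftz-f1 and Hr3 have filled symbols in every list, and br, Hr4 and Hr39 in none.

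The 3 early genes ranged from no peak to several. br (FBgn0283451, X 1575132 to 1664869), the Broad-Complex, which encodes zinc finger proteins of the pupal programme, had no promoter peak in the conservative or in any thresholded list. The nearest conservative summit to any of its 7 promoters was 42289 bp away, at the start of the neighbouring gene dor. In the ranked lists its best promoter peaks had scores of 26, 35 and 187 in replicates 1, 2 and 3. The lowest scores in those lists were 26, 35 and 30, so in replicates 1 and 2 br had the lowest score listed. By signal its strongest promoter peaks stood at percentiles 27.3, 20.4 and 66.9 of the ranked lists.

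Eip74EF (FBgn0000567, 3L 17558672 to 17619325, minus strand), an ETS-domain transcription factor gene with a long and a short unit, had 1 conservative promoter peak. It lay at 17576211 to 17576746 with a signal of 161, rank 3227 and percentile 26.6, between 2 start sites, 147 bp downstream of Eip74EF-RB and 159 bp upstream of Eip74EF-RD. No thresholded replicate list held a promoter peak at this gene. In the ranked lists the overlapping peaks had scores of 98, 93 and 786 in replicates 1, 2 and 3, so replicate 3 came closest to the threshold of 830. The summits of those in replicates 1 and 3 were nearest to Eip74EF-RD, at -102 and -112 bp. That of replicate 2 was nearest to Eip74EF-RB, at 27 bp. The conservative peak is counted at Eip74EF-RB as the nearer start site, so Eip74EF-RD counts as unbound although it too lies within 500 bp. The promoter of the long unit, that of Eip74EF-RA, was 5151 bp from the nearest conservative summit. The introns of Eip74EF held 4 further conservative peaks with signals of 136 to 238. The highest, at 17613906 to 17614441, was listed in replicate 3 alone, at percentile 56.9. The one at 17573761 to 17574296, with a signal of 186, was listed in replicates 1 and 3, at percentiles 28.2 and 34.7.

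Eip75B (FBgn0000568, 3L 17950953 to 18064696, minus strand), a haem-binding nuclear receptor gene that is both an early target and a repressor in the cascade, had conservative peaks at 3 of its 7 promoters. The strongest, at Eip75B-RA, had a signal of 249, rank 1946 and percentile 55.7, with its summit 171 bp downstream of the start site. That at Eip75B-RG had a signal of 169 and lay 160 bp upstream, and that at Eip75B-RC had a signal of 140 and lay 336 bp downstream, the farthest from its start site of all 10 promoter peaks. The promoters of Eip75B-RB, RE and RF, near the 5' end of the gene, were 29905 bp or more from the nearest conservative summit. The series lists differed here too. List a held the same 3 promoters, list b held RA and, with a signal of 152, Eip75B-RD, and list c held RA alone.

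Among the genes with a promoter peak in at least 2 thresholded replicate lists, the percentile varied most at Eip75B. Replicate 3 held all 3 promoter peaks, with signals of 132, 99.2 and 85.0 at RA, RG and RC. Replicate 1 held the RA peak alone, at percentile 18.9, and replicate 2 held none in its thresholded list. The ranked list of every replicate held peaks overlapping all 3. In replicate 2 the one at RA had a signal of 54.7 and a score of 477, below the threshold. Over the replicates with a peak, the percentile of the strongest was 38.2 ± 27.3 (SD, n = 2). Its rank was 2165 of 2667 peaks in replicate 1 and 1763 of 4146 in replicate 3. The unequal length of the lists therefore enters this spread. In the longer ranked lists the RA peak stood at percentiles 93.9, 91.6 and 96.8 in replicates 1, 2 and 3. One intronic peak, at 18029425 to 18029960 with a signal of 233, was listed in all 3 replicates, at percentiles 53.3, 28.1 and 36.3. It lay 3661 bp from the nearest Eip75B start site, and no other gene had a start site within 500 bp of it.

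Eip78C (FBgn0004865, 3L 21226609 to 21266503), a nuclear receptor gene related to Eip75B, had 1 conservative promoter peak at 21239979 to 21240514. It lay 100 bp upstream of Eip78C-RB, the most downstream of its 3 promoters, with a signal of 235, rank 2089 and percentile 52.5. Replicate 3 held it at percentile 57.7, with its summit 99 bp upstream. Replicates 1 and 2 did not hold it above the threshold, and their ranked lists gave it scores of 615 and 225.

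Among the early-late receptors Hr3 had a promoter peak in every list, and Hr4 and Hr39 had none in the thresholded ones. Hr3 (FBgn0000448, 2R 10203995 to 10237348, minus strand), which represses early genes and activates ftz-f1, was bound at 10227918 to 10228453, 229 bp upstream of the start site of Hr3-RA, Hr3-RF and Hr3-RH. CG46321 has the same start site. The signal was 318, with rank 1425 and percentile 67.6. The peak ranked 1361, 1620 and 1531 in replicates 1, 2 and 3, a percentile of 51.7 ± 10.3 (SD, n = 3). Replicate 3 gave the highest percentile, 63.1, at a rank between those of replicates 1 and 2, because its list is the longest. The summit of the peak moved between 188 and 232 bp upstream. The other promoters of Hr3 were 6421 and 9162 bp from the nearest conservative summit. Its introns held 2 further conservative peaks, with signals of 162 and 176.

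Hr4 (FBgn0264562, X 1941940 to 2007956), a repressor that links the early and the prepupal response, reached scores of at most 453, 118 and 569 in the ranked lists of replicates 1, 2 and 3. Hr39 (FBgn0261239, 2L 21237250 to 21259675), a receptor close in sequence to ftz-f1, reached 694, 556 and 949. The score of 949 in replicate 3 is above 830, yet the peak is absent from the thresholded list, as are 151 of the 4297 ranked peaks of that replicate at or above that score. The step that removed them is not given in the sources used here. Away from its promoter, Hr39 had an intronic peak in the thresholded list of replicate 1, at 21250746 to 21251155 with a signal of 68.5 and percentile 28.6. All 10 genes had a promoter peak in each ranked list, as did 61.6%, 59.6% and 69.8% of all protein-coding genes.

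ftz-f1 (FBgn0001078, 3L 18750607 to 18801309, minus strand), the competence factor that prepares tissues for the next hormone pulse and in the early embryo acts with the segmentation protein Ftz, had 2 conservative promoter peaks. The stronger, at 18801478 to 18801667, lay 233 bp upstream of ftz-f1-RB with a signal of 387, rank 1099 and percentile 75.0. It was listed in all 3 replicates, with summits 255, 277 and 230 bp upstream. A non-coding RNA gene, lncRNA:CR45939, starts 230 bp from the conservative summit. The other peak lay 135 bp upstream of ftz-f1-RC and ftz-f1-RD with a signal of 241 and percentile 53.8.

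The order of the ftz-f1 promoters changed between libraries. The thresholded lists of replicates 1 and 2 held the ftz-f1-RB peak alone, ranked 790 and 587. Their ranked lists also held the ftz-f1-RC peak, with signals of 51.6 and 42.3 and scores of 590 and 443, below the threshold. In replicate 3 the ftz-f1-RC peak was the stronger, with a signal of 175 and rank 1149 against 159 and rank 1338. Taking the stronger promoter in each list, ftz-f1 stood at percentile 74.0 ± 4.74 (SD, n = 3). The third promoter, that of ftz-f1-RA, was 923 bp from the nearest conservative summit.

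**Figure D3:**
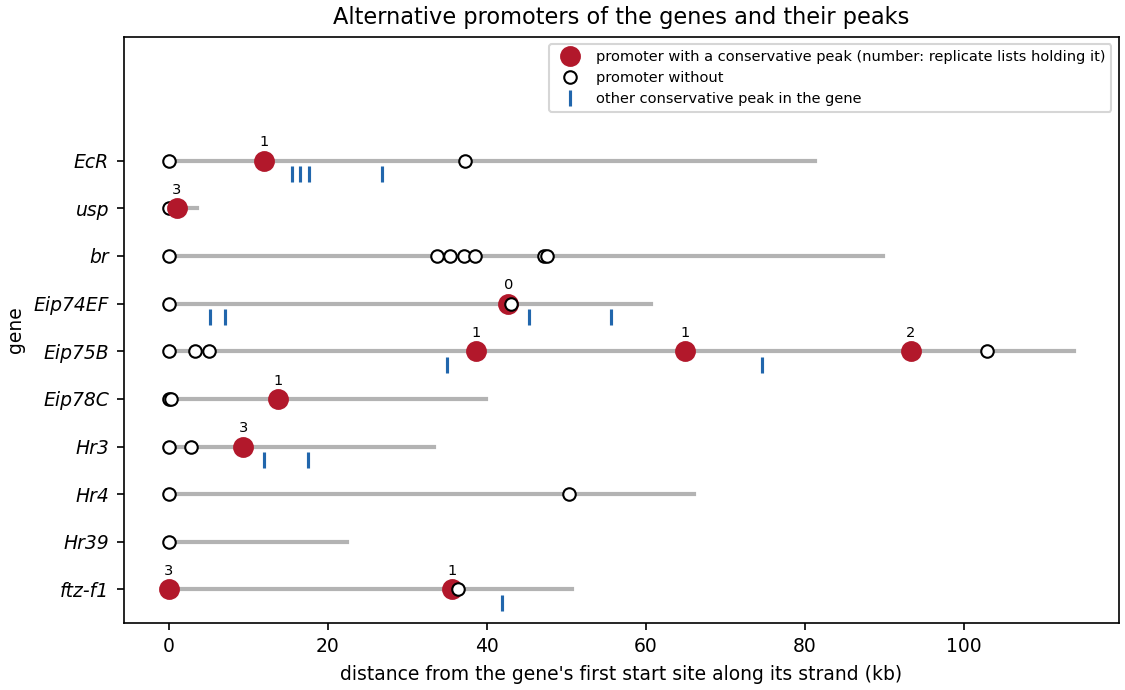
Promoters of each gene along its strand, as the distance from the first start site in kb (horizontal axis), one line per gene. Filled circles are promoters with a conservative peak, the number above giving how many of the 3 replicate lists held it. Each peak is drawn at its nearest promoter only. Open circles are promoters without, and ticks are other conservative peaks inside the gene. Of the circles 10 of 34 are filled, none of them on br, Hr4 or Hr39.

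In order of percentile the conservative promoter peaks ran from usp at 87.8 through ftz-f1 at 75.0, Hr3 at 67.6, Eip75B at 55.7, Eip78C at 52.5 and Eip74EF at 26.6 to EcR at 19.2. In the replicates the ranges of usp (77.6 to 88.2) and ftz-f1 (70.4 to 79.4) overlapped, while that of Hr3 (43.1 to 63.1) lay below both. Eip75B overlapped Hr3. The median over the 7 genes was 55.7, against 64.5 for the strongest promoter peaks of all 4153 bound protein-coding genes. In the thresholded lists of replicates 1, 2 and 3 the median was 59.7, 79.4 and 60.4, over 4, 3 and 6 cascade genes. The value for all bound genes was not taken in those lists. Of the 10 promoter peaks 4 had a signal above 246, the median of all conservative promoter peaks.

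The summits of the cascade genes sat farther from the start site than most. The nearest of the 10, that of usp-RA, lay 82 bp away, and 59.0% of all 3624 conservative promoter peaks had their summit nearer than that. This distance was taken from the 10 peaks themselves, which come from 7 genes. Their median position was -93 bp, against -32 bp for all promoter peaks, and 7 of the 10 were upstream, against 67.3% of all. In replicates 1, 2 and 3 the median positions were -198, -188 and -140 bp, against -34, -36 and -30 bp for all promoter peaks. Replicate 2 alone held a member summit nearer than 82 bp, the weak peak 57 bp downstream of usp-RB. Of the 10 peaks 8 had the most frequent width of 536 bp, shared by 65.7% of the conservative list, while usp and the ftz-f1-RB peak were narrower at 303 and 190 bp. Peaks of 536 bp had a median signal of 178 and narrower ones of 476. The part that peak width plays in the summit position was not tested.

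**Figure D4:**
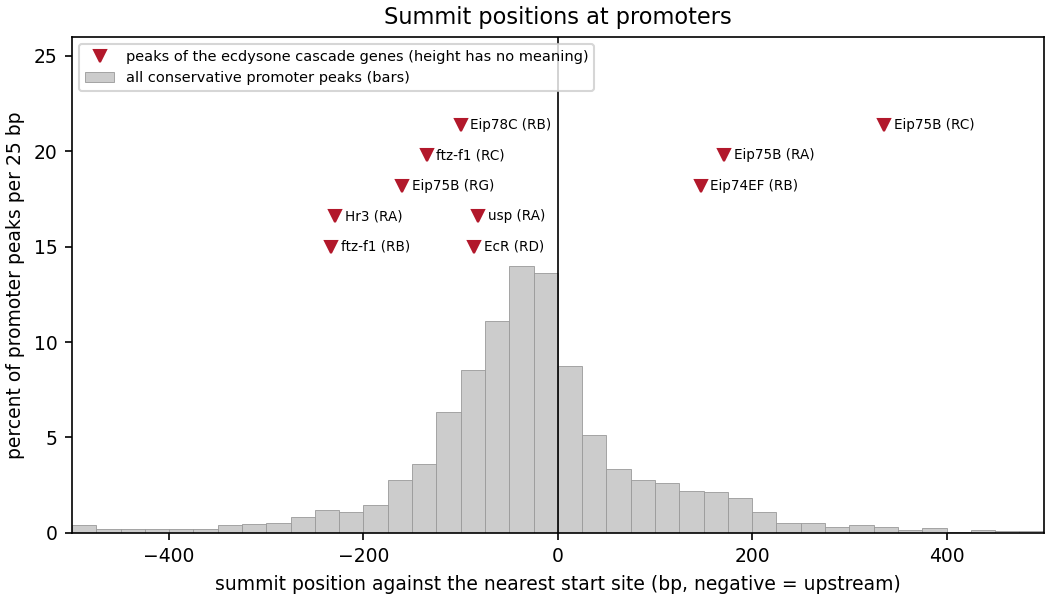
Position of conservative promoter summits against the nearest start site in bp (horizontal axis, negative is upstream), as the percent of all 3624 promoter peaks in each bin (bars, vertical axis), with the 10 peaks of the cascade genes as triangles labelled by gene and transcript. The bars are highest just upstream of the start site, and the triangles lie 82 to 336 bp from it on either side.

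The sequences at some of the summits are printed below. They are given from 5' to 3' on the strand of the gene, read from the Release 6 reference, with matches to the motifs searched in capitals. The usp stretch, chrX:2041387-2041444, ends where an annotated usp exon begins. The ftz-f1-RB stretch, chr3L:18801467-18801617, was widened after its values were seen, to include the match to its 5' side. The others reach 50 bp to either side of the summit, chr3L:18765829-18765929 for ftz-f1-RC, chr3L:21240197-21240297 for Eip78C-RB and chr3L:18026142-18026242 for Eip75B-RG. The windows of Eip74EF-RB, Eip75B-RA and Eip75B-RC lie wholly in annotated exons and are not shown, nor are those of EcR and Hr3.
usp-RA: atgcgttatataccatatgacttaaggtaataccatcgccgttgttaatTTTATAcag
ftz-f1-RB: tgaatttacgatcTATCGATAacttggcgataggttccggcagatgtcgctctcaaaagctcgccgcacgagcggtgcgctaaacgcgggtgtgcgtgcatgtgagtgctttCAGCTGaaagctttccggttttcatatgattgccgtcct
ftz-f1-RC: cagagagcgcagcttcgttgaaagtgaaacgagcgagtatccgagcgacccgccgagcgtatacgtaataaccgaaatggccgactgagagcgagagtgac
Eip78C-RB: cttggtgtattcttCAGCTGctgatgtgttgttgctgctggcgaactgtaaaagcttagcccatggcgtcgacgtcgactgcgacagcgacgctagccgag
Eip75B-RG: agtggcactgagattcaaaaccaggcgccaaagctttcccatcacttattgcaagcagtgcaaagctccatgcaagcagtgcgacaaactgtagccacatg

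The DNA replication-related element (DRE, TATCGATA), a core promoter element of many broadly expressed fly genes, was in few of these windows. Within 50 bp of the summit it was in 0 of the 10 conservative peaks, against 16.3% of all 3624 promoter peaks, and its core ATCGAT was likewise in 0 of 10, against 32.8%. Within 250 bp, 1 of 10 held a DRE, against 27.5%. That was the ftz-f1-RB promoter, where the element is the first run of capitals above, at -59 bp from the summit. The summits of replicates 1 and 2 at this promoter lay farther upstream, and their narrower windows held the DRE, as did 21.6% and 20.4% of all promoter windows in those lists. It was the only member window with a DRE in either list, out of 4 and 5, and in replicate 3 it was in 0 of 9, against 15.9%.

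Repeats of GA, to which the GAGA factor Trl binds, were in 1 peak window of the narrower size and in most of the wider ones. The repeat GAGAGAG on either strand was within 250 bp of 6 of 10 summits, against 14.0% of all promoter peaks. Those 6 were at Eip74EF-RB, Eip75B-RA, Eip75B-RC, Eip78C-RB, Hr3-RA and ftz-f1-RC, with 5 matches at Hr3-RA and 6 at ftz-f1-RC, where overlapping matches count separately. Within 50 bp only Eip75B-RA held one, against 4.22% of all. Measured instead around the promoters, whether bound or not, windows of 250 bp to either side held the repeat at 6 of the 10 bound promoters of the cascade genes and at 5 of their 24 unbound ones. The bound promoters with it were not the same set as at the summits, as Eip75B-RG took the place of Eip78C-RB. Over all protein-coding genes the shares were 11.0% and 9.22%.

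The remaining motifs were scattered. The E-box CAGCTG was within 50 bp of 2 of 10 summits, at Eip78C-RB and ftz-f1-RB, against 11.5% of all promoter peaks. TATAAA was in 1, that of usp-RA, against 11.4%, and there it reads as TTTATA on the strand of the gene. Within 250 bp the E-box was in 5 of 10, against 34.5%, TATAAA in 3, against 50.2%, and the Motif 1 core in 0, against 11.9%. The Motif 1 core GGTCACAC was within 50 bp of 0 summits, against 3.78%. The hexamer AGGTCA, which nuclear receptors recognise and which shares GGTCA with the Motif 1 core, was in 0 of 10 windows, against 1.3%. Within 250 bp it was in the window of Hr3-RA alone, against 8.36%. The longer FTZ-F1 site TCAAGGTCA, which contains that hexamer, was in none of these windows of either length, and in 0% and 0.276% of all. A match describes letters in a window and shows neither a bound site nor its absence.

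Other genes of the pathway were read from 4 lists, to be set against the 29.7% of all protein-coding genes bound in the conservative list and the 21.1%, 22.3% and 28.6% bound in replicates 1, 2 and 3. Genes of ecdysteroid synthesis and clearance, the Halloween enzymes among them, had a promoter peak in 0 of 9 cases in the conservative list and in each thresholded replicate list. These were nvd, spo, spok, sro, phm, dib, sad, shd and Cyp18a1, most of which have 1 promoter, a class with 27% of genes bound. Of 7 genes of ecdysone uptake and receptor cofactors 3 were bound (42.9%, against 29.7%). They were tai, a coactivator of EcR, with a signal of 404 and a peak in all 3 replicates, Oatp74D, the ecdysone importer, with 230, and trr, a histone methyltransferase, with 173 and a peak in 0 replicate lists. The counts were 1, 3 and 4 of 7 in replicates 1, 2 and 3, or 38.1% ± 21.8 (SD, n = 3).

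Of 15 other ecdysone response genes 4 were bound in the conservative list (26.7%), near the 29.7% of all protein-coding genes. They were crol with a signal of 535, the cell death gene rpr with 229, the transporter gene E23 with 217 and Eip63E with 145. crol, a zinc finger gene, was the only one of them with a promoter peak in all 3 replicates, and the counts were 1, 3 and 6 of 15, or 22.2% ± 16.8 (SD, n = 3), against 21.1%, 22.3% and 28.6% of all genes. Of 13 other nuclear receptor genes 6 were bound (46.2%, against 29.7%), led by Hr38 with a signal of 282, ERR with 273, Hr96 with 271 and svp with 183. In the replicates 0, 3 and 5 of these receptors had a promoter peak, or 20.5% ± 19.4 (SD, n = 3), against 21.1%, 22.3% and 28.6% of all genes, and none had one in all 3. The signal of Hr38 was below the strongest promoter peaks of usp, ftz-f1 and Hr3 and above those of Eip75B, Eip78C, Eip74EF and EcR.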

How the data were processed

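ChIP-seq peaks of CG34224-eGFP were read from lists deposited for 3 biological replicates of whole embryos and for the series. Per the deposited descriptions, coordinates are on dm6, all 3 libraries enter the series lists, and ranking and thresholds used IDR, the irreproducible discovery rate. No source used here names the aligner or peak caller. The score the authors deposited is IDR-scaled, at most 1000. The deposited signal is the peak caller's value on an unstated scale and was compared only within a list. Depth is unknown.

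Start sites came from Ensembl release 115, annotation BDGP6.54, on the same assembly, Release 6; 0 peak ends lay beyond its chromosomes. Each summit was assigned to the nearest start site of a gene. Peaks were matched between lists by an overlap of 50% or more of the shorter. Of the list symbols, phm (phtm in the annotation), EcI (Oatp74D), Eip71CD (MsrA) and Eip55E (Cth) were matched through RefSeq synonyms, and those of phm and EcI, which other genes share, by hand. Motifs were searched on both strands.

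The genes, lists and motifs were chosen with earlier results of these data known. All 10 cascade genes are named, and up to 4 of the strongest bound genes of each list. With 1 group there is no test; values are counts, ranks and mean ± SD over replicates. The labels give each replicate its own biosample. The start site step was checked on planted summits. Alternatives changed the promoter distance (250 or 1000 bp), the start sites used, their merging (100 or 1000 bp), the score (at least 900), the list and the replicates. Python 3.11.15, numpy 2.4.6, pandas 2.3.3 and matplotlib 3.10.9 were used.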

Additional observations from a re-analysis of the deposited data

How the results depend on the processing

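Of 50 alternative values for the 6 counts and medians over the 10 genes, 48 stayed within 1.5 times the reported count or within the spread between replicates. Both exceptions came from keeping the upper 50% of conservative peaks by signal, which removed weaker peaks by construction. The promoters with a peak fell from 10 to 6 and the median percentile, ranked within that shorter list, from 55.7 to 35.2; EcR and Eip74EF were then without a promoter peak, leaving 5 genes. With a promoter distance of 250 bp ftz-f1 lost its peak in replicates 1 and 2, where its summits lay 255 and 277 bp from the start site, and 2 genes in place of 3 had one in all 3 replicates. The count of genes per replicate was 3.5 without replicate 3 and 5 without replicate 2. The alternatives are not independent of the reported values. Series lists a, b and c hold many of the same promoter peaks at these genes. Leaving out a replicate cannot lower the count of genes with a peak in all replicates kept. Among single genes EcR moved most, from percentile 19.2 to 37.3 in series list a and 31.3 in series list b. The values in lists a and b belong to a different peak, at the promoter of EcR-RB and EcR-RC. EcR had no promoter peak in series list c. No paired analysis was possible because there is 1 group.

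The lists hold called peaks without read counts, so a gene with no listed peak is one without a call at an unknown depth. Peaks at a start site shared by 2 genes cannot be told apart.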
